A study of Mus musculus with 36 samples.

Results

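The miR-17/92 cluster is a polycistronic microRNA (miRNA) locus, and 10 of its mature products were followed here through whole mouse kidneys, out of 1915 mature miRNAs in the read count table. The members were taken by name: mmu-miR-17-5p, mmu-miR-17-3p, mmu-miR-18a-5p, mmu-miR-18a-3p, mmu-miR-19a-3p, mmu-miR-19b-3p, mmu-miR-20a-5p, mmu-miR-20a-3p, mmu-miR-92a-3p and mmu-miR-92a-1-5p, written below without the species prefix. Where a mature miRNA was listed under more than 1 precursor hairpin, the row with the highest total was kept. All 10 members passed the filter on low counts, and the lowest count of any member in any library was 46 reads.

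Small RNA was sequenced from C57BL/6 kidneys in 2 lines of mice that model dominantly inherited polycystic kidney disease (Pkd1 model and Pkd2 model in the plots). The wild-type (WT) kidneys carried 2 floxed alleles of Pkd1 (Pkd1f/f) or of Pkd2 (Pkd2f/f) and no Cre, and the knockout (KO) kidneys carried the same floxed alleles with the HoxB7-Cre transgene (Pkd1f/f:HoxB7-Cre or Pkd2f/f:HoxB7-Cre). Sampling was at postnatal days 1 (P1), 3 (P3) and 7 (P7), and the 12 groups had 3 libraries apiece, 36 in all. HoxB7-Cre deletes the floxed gene in the collecting duct, while whole kidneys were sequenced, so that WT cells remained in every KO sample, and fewer cells of a type and less RNA per cell cannot be told apart in such tissue. The deleted exons are not read by a small RNA library, so the deletion itself was not checked here. The labels do not say whether the 3 libraries of a group came from separate animals, and p-values measure only the spread between them.

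A miRNA guides the silencing complex to messenger RNAs through its seed, the bases at positions 2 to 8 of the mature strand, and products with the same seed share most of their predicted targets. The cluster is transcribed as 1 primary RNA, which Drosha and Dicer cut into separate hairpins and then mature strands. MYC and E2F factors are known to drive the locus, which is best known for promoting proliferation and repressing genes such as Bim and the cell cycle inhibitor p21. It is needed for nephron progenitors in the developing kidney, and it has been studied as a promoter of cyst growth in polycystic disease.

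The cluster falls into 4 guide-strand seed groups, and these sequences are shown because every level below belongs to one of them. They are RefSeq sequences on build GRCm38.p6, written 5′ to 3′, with the seed in capitals, and all 10 members were matched by name. The miR-17 seed was shared by 2 members, and their closest copies on chromosomes X and 5 are given for comparison.
miR-17-5p: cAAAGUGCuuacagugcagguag
miR-20a-5p: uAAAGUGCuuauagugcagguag
miR-106a-5p: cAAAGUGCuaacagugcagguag
miR-20b-5p: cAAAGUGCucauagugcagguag
miR-93-5p: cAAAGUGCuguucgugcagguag
miR-18a-5p: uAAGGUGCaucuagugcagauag
miR-19a-3p: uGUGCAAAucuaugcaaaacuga
miR-19b-3p: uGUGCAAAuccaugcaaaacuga
miR-92a-3p: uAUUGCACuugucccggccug
miR-25-3p: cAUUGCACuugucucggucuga
Counted from 1 at the 5′ end, miR-17-5p and miR-20a-5p differed by C1U and C12U, miR-17-5p and miR-106a-5p by U10A alone, and miR-19a-3p and miR-19b-3p by U11C alone. Members this close share reads where a sequencing or alignment error falls on the differing base, so their separate counts carry that uncertainty.

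The other member arms come from the opposite strands of the same hairpins and carry seeds of their own. They are shown because their ratio to the guide strand is used below.
miR-17-3p: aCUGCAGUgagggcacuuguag
miR-18a-3p: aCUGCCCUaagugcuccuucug
miR-20a-3p: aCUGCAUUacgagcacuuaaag
miR-92a-1-5p: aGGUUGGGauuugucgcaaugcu

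All 6 hairpins lie on the plus strand of chromosome 14 within 836 bases of each other. In GENCODE release 21 of the mouse annotation they fall inside exon 2 (chr14:115043271-115046727) of the long non-coding host gene Mir17hg (chr14:115042879-115046727). Their order is Mir17 (chr14:115043671-115043754), Mir18 (chr14:115043851-115043946), Mir19a (chr14:115044000-115044081), Mir20a (chr14:115044157-115044263), Mir19b-1 (chr14:115044305-115044391) and Mir92-1 (chr14:115044427-115044506). Between neighbouring hairpins lie 35 to 96 bases. Mature miR-19b-3p and miR-92a-3p can also come from the hairpins Mir19b-2 (chrX:52741983-52742066) and Mir92-2 (chrX:52741838-52741928) on the minus strand of chromosome X, with the same sequence.

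The opposite arms of these 2 members do differ between loci. They would give the origin of the members only if both loci yield the 2 arms in the same proportion, which was not tested. Between libraries the count ratio of miR-19b-3p to miR-19b-1-5p ran from 52.5 to 5175. The chromosome 14 arm miR-92a-1-5p had 114545 reads over all libraries, against 57 reads of the chromosome X arm miR-92a-2-5p. In the same way miR-19b-1-5p had 2407 reads and miR-19b-2-5p had 70. For miR-19b-3p both precursor rows held nearly the same count in each library, the lower being 98.6% to 99.8% of the higher. For miR-92a-3p the lower row, filed under mir-92a-2, held 4.97% to 12.3% of the higher row, 373553 against 5457567 reads in all.

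Library totals ran from 12569939 to 27255128 reads in the Pkd1 line and from 17511509 to 32663566 in the Pkd2 line. Counts were scaled by TMM (a trimmed mean of log ratios) within each line and are given as CPM (counts per 1e+06 scaled reads), so levels are compared within a line and not between lines. Mature members are 21 to 23 bases long and 1 read covers the whole molecule, so no length correction was applied. The abundant miR-10 pair, miR-10a-5p with miR-10b-5p, took 31.4% to 81.0% of a library, and this share varied among replicates of 1 group. No replicate pair agreed within sampling noise, and all 36 libraries were counted as separate samples.

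Kidney epithelial miRNAs were abundant: the summed level of 6 of 6 listed markers (the miR-192/194, miR-204 and miR-200 group) ran from 5613 to 36550 CPM. Endothelial miR-126a (2 of 2 arms) ran from 4389 to 28440 CPM and the 4 erythroid miRNAs from 1103 to 6919 CPM. Lower sums were seen for the 4 leukocyte miRNAs (109 to 631 CPM), the 3 neural miRNAs (176 to 441 CPM), the 6 muscle miRNAs (14.6 to 1175 CPM, with 1 of them at 0 in the P7 WT group of either line) and the 2 liver miR-122 arms (0.053 to 360.0 CPM). The highest muscle sum was that of 1 Pkd1 WT library at P1, where the group median was 40.65 CPM. The highest miR-122 sum was that of 1 Pkd2 WT library at P1, where the group median was 13.94 CPM. At P7 the epithelial sum was lower in KO than in WT with no overlap in either line, at 12330 to 13180 against 15140 to 23980 CPM in the Pkd1 line and 13040 to 20480 against 24040 to 36550 CPM in the Pkd2 line. The erythroid sum at P7 was higher in Pkd2 KO, at 4355 to 6919 against 2661 to 3316 CPM, and overlapped in the Pkd1 line. Of the 42 contrasts of KO with WT over the 7 lists, 10 were without overlap, and the other 7 are these. The epithelial sum at P1 was higher in Pkd1 KO (9450 to 10210 against 6505 to 8868 CPM) and lower in Pkd2 KO (8919 to 11360 against 11920 to 14480 CPM). The Pkd1 erythroid sum was lower in KO at P1 (2103 to 2445 against 2810 to 3742 CPM) and higher at P3 (1333 to 3638 against 1103 to 1269 CPM). At P3 the neural sum was lower in KO of both lines (176 to 195 against 207 to 252 CPM for Pkd1, 246 to 251 against 290.3 to 334 CPM for Pkd2). The muscle sum was higher in Pkd2 KO at P7 (33.3 to 132.5 against 21.4 to 23.8 CPM). The part of these marker shifts in the comparisons below was not tested.

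Together the 10 members took 0.29% to 1.82% of a library's reads, with a median of 0.86%. Most of that was miR-92a-3p, which made up 28.6% to 84.2% of the cluster's reads (median 71.6%). Median levels in the Pkd1 line were 4458 CPM for miR-92a-3p, 567 for miR-19b-3p, 448 for miR-17-5p, 353 for miR-20a-5p and 231 for miR-18a-5p. Pkd2 medians were 6924, 503, 849, 664 and 321 CPM in that order.

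The opposite arms were far less abundant. Their medians in the Pkd1 and Pkd2 models were 102 and 141 CPM for miR-92a-1-5p, 29.2 and 53.0 CPM for miR-17-3p, 8.23 and 14.1 CPM for miR-18a-3p, and 6.83 and 16.3 CPM for miR-20a-3p. Although they are cut from 1 primary transcript, the mature members of the cluster thus spanned levels from a few CPM for the rarest arms to the 4458 and 6924 CPM of miR-92a-3p.

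**Figure D1:**
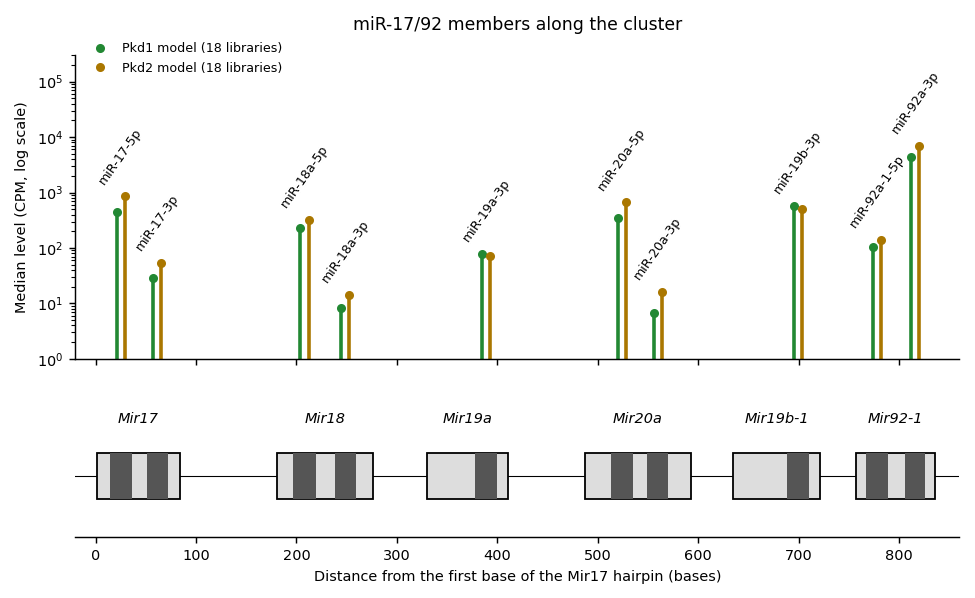
Median level of each member (CPM, log axis) over the 18 libraries of each line, plotted at its position along the cluster, with the 6 hairpins drawn to scale as boxes and the mature strands as dark bands; the x axis is distance in bases from the start of the Mir17 hairpin. miR-92a-3p, in the last hairpin, stood highest in both lines (4458 and 6924 CPM), and miR-20a-3p and miR-18a-3p were the lowest of the Pkd1 line (6.83 and 8.23 CPM).

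The first question was whether loss of Pkd1 or Pkd2 changed the cluster. In neither line and at no age did a member pass edgeR's quasi-likelihood test with Benjamini-Hochberg adjustment over all miRNAs tested. The count was 0 of 10 in each of the 6 comparisons, against 0% of all miRNAs at P1 and P3 in both lines, 0.425% (3 of 706) at P7 in the Pkd1 line and 12.6% (94 of 746) at P7 in the Pkd2 line. That last number of called miRNAs was itself unsteady: it was 52, 11 and 11 without WT library 1, 2 or 3, 115, 142 and 4 without KO library 1, 2 or 3, and 7 with library totals alone, with 0 members called in each of these. At an unadjusted p under 0.05 the counts of members in the Pkd1 line were 0, 1 and 3 from the youngest to the oldest age, where the shares of all miRNAs were 8.36%, 9.07% and 10.2%. Pkd2 counts were 1, 0 and 0, against 5.5%, 1.47% and 29% of all miRNAs. The DESeq2 test also called 0 members in each comparison. Of all miRNAs it called 9, 9 and 17 of 706 from P1 to P7 in the Pkd1 line. In the Pkd2 line it called 0, 0 and 157 of 746.

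miR-17-5p, the founding member of the seed family, separated the Pkd1 genotypes at 2 ages. At P7 its level was 404, 435 and 431 CPM in the KO libraries and 379, 346 and 267 CPM in the WT libraries. Every KO library lay above every WT library, with a fitted log2 fold change (log2 change below) of 0.36 (SE 0.16, 95% interval 0.041 to 0.67, edgeR adjusted p = 0.45). At P3 the order was the opposite, with 413, 461 and 419 CPM in KO and 571, 653 and 481 CPM in WT. Here every KO library lay below every WT library, with a log2 change of -0.40 (SE 0.16, unadjusted p = 0.026, edgeR adjusted p = 0.49). At P1 the groups overlapped, at 425, 531 and 554 CPM in KO and 494, 578 and 524 CPM in WT.

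For Pkd2, miR-17-5p did not separate the genotypes. At P7 its level was 466, 701 and 527 CPM in KO and 728, 593 and 584 CPM in WT, with a log2 change of -0.17 (SE 0.18, 95% interval -0.51 to 0.17, edgeR adjusted p = 0.57). At P1 the KO libraries had 871, 967 and 906 CPM and the WT libraries 982, 972 and 930 CPM. At P3 they had 855, 847 and 851 CPM and 1121, 768 and 771 CPM. The groups overlapped at all 3 ages.

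Ordered by group mean (± SD, n = 3), miR-17-5p in the Pkd1 line was highest at P3 in WT (568 ± 86.2 CPM), then P1 WT (532 ± 42.6), P1 KO (503 ± 68.8), P3 KO (431 ± 26.1), P7 KO (423 ± 16.6) and P7 WT (330 ± 57.6). The neighbours in that order overlapped in their libraries, except P7 KO and P7 WT. The Pkd2 order was P1 WT (962 ± 27.7 CPM), P1 KO (915 ± 48.4), P3 WT (887 ± 203), P3 KO (851 ± 4.0), P7 WT (635 ± 80.5) and P7 KO (564 ± 122). There the step from P3 KO to P7 WT was the single one between neighbours without overlap.

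miR-20a-5p, which has the same seed as miR-17-5p, had overlapping libraries throughout. At P7 it stood at 318, 329 and 375 CPM in Pkd1 KO and 345, 325 and 204 CPM in Pkd1 WT, a log2 change of 0.23 (SE 0.23, edgeR adjusted p = 0.84). Pkd2 kidneys had 302, 660 and 390 CPM in KO and 608, 453 and 422 CPM in WT, a log2 change of -0.13 (SE 0.27, edgeR adjusted p = 0.79). The same held at P1 and P3 in both lines.

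miR-18a-5p, whose seed differs from that of miR-17-5p by 1 base, gave the lowest p of any member for KO against WT. At P7 in the Pkd1 line its level was 283, 256 and 230.0 CPM in KO and 129, 140 and 124 CPM in WT. The KO libraries were all above the WT libraries, with a log2 change of 0.97 (SE 0.30, 95% interval 0.38 to 1.56). Its unadjusted p was 0.0055, rank 24 of 706, and its edgeR adjusted p was 0.16. The same contrast in the Pkd2 line was 208, 167 and 138 CPM in KO against 207, 191 and 123 CPM in WT, a log2 change of -0.02 (SE 0.27, 95% interval -0.55 to 0.50, edgeR adjusted p = 0.96).

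At the earlier ages miR-18a-5p was again higher in most KO libraries of 3 of the 4 contrasts. At P1 it was 359, 413 and 520 CPM in Pkd1 KO against 348, 241 and 321 CPM in WT, without overlap, and 358, 862 and 518 CPM in Pkd2 KO against 339, 394 and 390 CPM in WT. The fitted log2 change of the latter was 0.63 (SE 0.27, unadjusted p = 0.031, edgeR adjusted p = 0.89), and 1 of its KO libraries lay within the WT range. Without KO library 2, the highest, this change was 0.23. At P3 it was 94.6, 140.5 and 68.4 CPM in Pkd1 KO against 232, 117 and 100.5 CPM in WT, and 339, 377 and 329 CPM in Pkd2 KO against 312, 253 and 240 CPM in WT. The Pkd2 libraries at P3 did not overlap, while those of Pkd1 did and leaned lower in KO.

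miR-92a-3p, the most abundant member and the seed partner of miR-25-3p, differed little between genotypes at P7. At P7 it was 2564, 3351 and 2964 CPM in Pkd1 KO and 3463, 3249 and 2735 CPM in WT, a log2 change of -0.09 (SE 0.16, 95% interval -0.41 to 0.23, edgeR adjusted p = 0.93). Pkd2 kidneys had 4642, 4365 and 3957 CPM in KO and 4574, 4377 and 5768 CPM in WT, a log2 change of -0.18 (SE 0.18, 95% interval -0.53 to 0.16, edgeR adjusted p = 0.54). The groups overlapped in both lines, and the intervals reach no further than 0.53 in size on the log2 scale.

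At P1 miR-92a-3p was 6531, 6403 and 5682 CPM in Pkd1 KO against 4828, 5271 and 5514 CPM in WT, without overlap. Pkd2 kidneys at P1 had 9140, 7952 and 7634 CPM in KO against 7340, 9609 and 8866 CPM in WT. At P3 it was 5444, 3679 and 4203 CPM against 4387, 4530 and 5295 CPM in the Pkd1 line. Pkd2 kidneys at P3 had 6776, 5947 and 7556 CPM against 5649, 8611 and 7071 CPM. Only the P1 libraries of the Pkd1 line were separate among these 4 contrasts of KO with WT.

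The other arm of the same hairpin, miR-92a-1-5p, was more variable. At P7 its level was 45.6, 73.6 and 73.9 CPM in Pkd1 KO and 51.2, 49.3 and 29.7 CPM in WT, a log2 change of 0.57 (SE 0.24, unadjusted p = 0.032, edgeR adjusted p = 0.42). Pkd2 levels at P7 were 60.7, 138 and 115 CPM in KO and 98.2, 68.7 and 64.3 CPM in WT, a log2 change of 0.44 (SE 0.28, edgeR adjusted p = 0.32). In both lines 2 KO libraries exceeded all WT libraries and 1 KO library did not.

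At P1 miR-92a-1-5p was 95.6, 106 and 104 CPM in Pkd1 KO against 100.5, 148 and 98.4 CPM in WT, and 170.1, 109 and 158 CPM in Pkd2 KO against 145, 163 and 170.5 CPM in WT. At P3 it was 129.7, 129 and 133 CPM in Pkd1 KO against 133, 193 and 148 CPM in WT, and 175, 187 and 120.4 CPM in Pkd2 KO against 167, 146 and 120.5 CPM in WT. The groups overlapped in all 4 of these contrasts.

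The remaining low-abundance arms did not separate the genotypes at P7. In the Pkd1 line the log2 changes were 0.16 (SE 0.23, edgeR adjusted p = 0.91) for miR-17-3p, -0.21 (SE 0.26, adjusted p = 0.91) for miR-18a-3p and -0.20 (SE 0.36, adjusted p = 0.93) for miR-20a-3p. Those of Pkd2 were -0.02 (SE 0.25, edgeR adjusted p = 0.96), -0.01 (SE 0.32, adjusted p = 0.98) and 0.08 (SE 0.44, adjusted p = 0.94) in the same order. The libraries of KO and WT overlapped for all 3 arms in both lines.

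**Figure D2:**
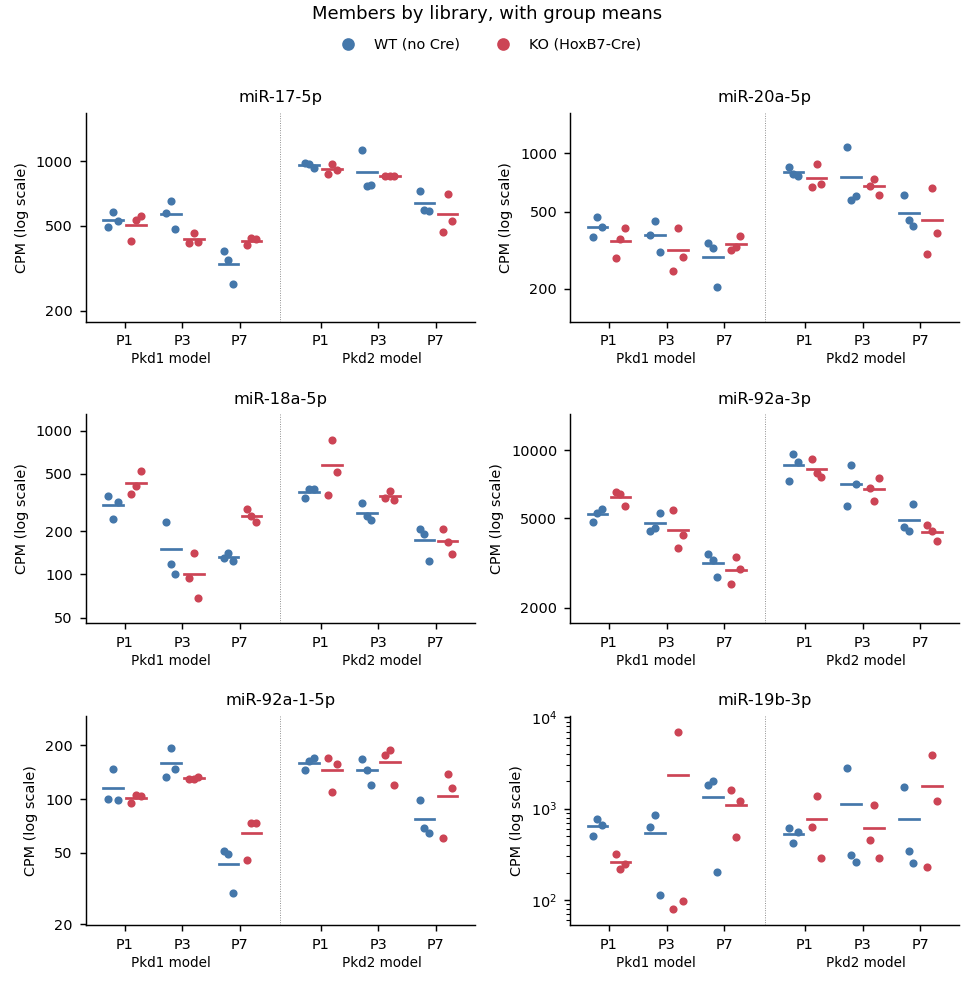
Levels of 6 members in each library (CPM after TMM scaling within a line, log axis) by age and line, with WT in blue and KO in red; points are libraries and bars are means of 3. miR-18a-5p at P7 separated the Pkd1 genotypes (230.0 to 283 CPM in KO against 124 to 140 CPM in WT) and not the Pkd2 genotypes, miR-92a-3p lay lower at P7 than at P1 in both genotypes, and miR-19b-3p ranged from 79.8 to 6871 CPM in the Pkd1 line with replicates far apart.

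miR-19a-3p and miR-19b-3p, which share the miR-19 seed, behaved unlike the rest of the cluster. In the 3 Pkd1 KO libraries at P3, miR-19b-3p stood at 79.8, 6871 and 96.7 CPM, and miR-19a-3p at 10.7, 1083 and 12.9 CPM. The second library thus lay far above its replicates for both, with 56927 reads of miR-19b-3p against 4026 and 5056. In the same libraries miR-17-5p, which comes from the same primary transcript, differed little (413, 461 and 419 CPM).

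The same spread was present in other groups and in both genotypes. At P7 miR-19b-3p was 1621, 488 and 1216 CPM in Pkd1 KO and 1811, 1993 and 204 CPM in Pkd1 WT. Pkd2 levels at P7 were 233, 3880 and 1227 CPM in KO and 1727, 348 and 255 CPM in WT. The single group contrast without overlap was P1 in the Pkd1 line, where KO libraries had 321, 216 and 249 CPM and WT libraries 501, 777 and 659 CPM. The Pkd2 libraries at P1 had 626, 1373 and 288 CPM in KO and 618, 418 and 557 CPM in WT.

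At P3 the WT libraries of the Pkd1 line had 632, 862 and 112 CPM of miR-19b-3p. The Pkd2 libraries at P3 had 449, 1104 and 287 CPM in KO and 2763, 311 and 261 CPM in WT. In 6 of the 12 groups, then, 1 library lay over 3-fold above or below both of its replicates.

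The fitted changes of both members carry that spread as wide errors. At P7 the log2 changes of miR-19a-3p were -0.37 (SE 1.26) in the Pkd1 line and 1.30 (SE 1.01) in the Pkd2 line, with edgeR adjusted p of 0.98 and 0.44. Those of miR-19b-3p were -0.27 (SE 1.21) and 1.20 (SE 1.01), with edgeR adjusted p of 0.98 and 0.49. The 95% interval of miR-19b-3p ran from -2.65 to 2.11 in the Pkd1 line, so that a change of several fold in either direction was not detectable. Both Pkd2 changes rested on KO library 2, without which they were -0.14 for miR-19b-3p and 0.013 for miR-19a-3p.

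Measured as the within-group standard deviation of log2 CPM over all 36 libraries, miR-19a-3p (1.69) and miR-19b-3p (1.65) ranked 770 and 769 of 775 miRNAs from the steadiest to the most variable. miR-92a-3p (0.18, rank 35) and miR-17-5p (0.20, rank 49) were among the steadiest. The other members lay between 0.28 and 0.52, around the median of 0.44 over all miRNAs. The cluster thus held members from both ends of the range.

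The opposite arms of the miR-19 hairpins did not follow their partners. In Pkd1 KO at P3, miR-19b-1-5p had 1.35, 1.21 and 1.17 CPM and miR-19a-5p 1.60, 1.57 and 1.45 CPM, with 10 and 13 reads in the library where the 3p strands were so high. Over all 36 libraries the count ratio of miR-19b-3p to miR-19b-1-5p ran from 52.5 to 5175, and that of miR-19a-3p to miR-19a-5p from 6.61 to 641. The ratio of miR-19a-3p to miR-19b-3p, in contrast, kept within 0.097 and 0.17. The 2 similar 3p sequences therefore moved together, and apart from the strands they are cut with.

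Beside these values, the share of miR-10a-5p and miR-10b-5p was 79.8% in the second Pkd1 KO library at P3 and 31.4% and 40.6% in its replicates. To set this share against the cluster, 22 relations were computed between it and log2 ratios of counts within a library, after centring both on group means, with exact permutation within groups. In the Pkd1 line (n = 18) the ratio of miR-19b-3p to miR-17-5p had Pearson's r = 0.97 (permutation p = 0.00021, adjusted 0.00063) and Spearman's rho = 0.95 (permutation p = 0.00051, adjusted 0.0011). For the Pkd2 line r was 0.97 (permutation p = 6.4e-05, adjusted 0.00035) and rho was 0.96 (permutation p = 6.4e-05, adjusted 0.00047). Without the 2 libraries farthest from the median share, r was 0.96 and 0.98.

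A smaller shift of the same sign separated even the near-identical miR-20a-5p and miR-17-5p. Their ratio rose with the miR-10 share with r = 0.90 (permutation p = 0.00017, adjusted 0.00063) and rho = 0.86 (permutation p = 0.00017, adjusted 0.00075) in the Pkd1 line. For the Pkd2 line r was 0.94 (permutation p = 2.1e-05, the smallest the arrangements allow, adjusted 0.00035) and rho was 0.91 (permutation p = 2.1e-05, adjusted 0.00047). Without the 2 farthest libraries r was 0.92 and 0.91. Over all libraries that ratio spanned only 0.60 to 0.96.

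The ratio of miR-92a-3p to miR-17-5p moved the other way. It had r = -0.77 (permutation p = 0.0011, adjusted 0.0022) and rho = -0.78 (permutation p = 0.00045, adjusted 0.0011) in the Pkd1 line. For the Pkd2 line r was -0.89 (permutation p = 0.00073, adjusted 0.0016) and rho was -0.86 (permutation p = 0.0017, adjusted 0.0033). Without the 2 farthest libraries r was -0.57 and -0.75.

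Of the 22 relations, 16 had an adjusted p under 0.05 by Pearson's r and 16 by Spearman's rho. The ratios of miR-18a-5p to miR-17-5p and of miR-18a-3p to miR-18a-5p had none in either line. The ratio and the share come from the same library and share its composition, and what sets them both was not tested.

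**Figure D3:**
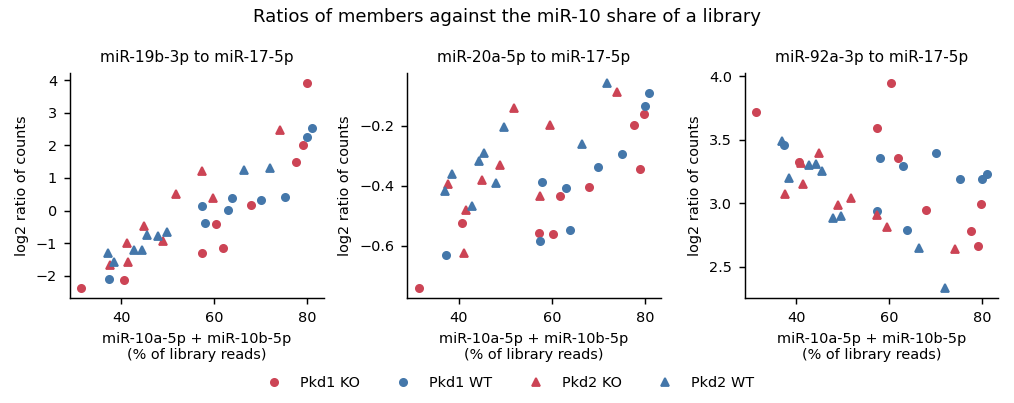
log2 ratio of counts of miR-19b-3p, miR-20a-5p and miR-92a-3p to miR-17-5p (y axes, different scales) against the percent of library reads taken by miR-10a-5p and miR-10b-5p, with circles for the 18 Pkd1 libraries, triangles for the 18 Pkd2 libraries, blue for WT and red for KO. The first ratio rose with the share from 0.19 to 14.9 on the linear scale, the second rose between 0.60 and 0.96, and the third leaned downward.

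Counted over the cluster, separation of KO from WT libraries went in no common direction. In the Pkd1 line at P1, 2 members were higher and 4 lower in every KO library than in every WT library, beside 19.8% of all miRNAs separated in either direction. At P3 it was 0 higher and 1 lower (11.9% of all miRNAs), and at P7 2 higher and 0 lower (16.3%). The Pkd2 counts were 0 higher and 1 lower at P1 (13.5%), then 1 and 0 at P3 (4.69%) and finally 0 of either kind at P7 (25.2%). The 10 members had a median log2 change at P7 of 0.04 for Pkd1 and -0.02 for Pkd2, beside 0.01 and 0.02 over all miRNAs tested.

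Whether the KO effect changed with age was asked with an interaction term. Of the 10 members, 0 had an adjusted p under 0.05 for the P7 effect of KO less the P1 effect, where 0.142% of all miRNAs did in the Pkd1 line and 0.536% in the Pkd2 line. In the Pkd1 line miR-92a-1-5p gave the lowest p, with a difference of 0.76 on the log2 scale (SE 0.34, unadjusted p = 0.043, edgeR adjusted p = 0.40). In that model 9 of the 10 differences were above 0, with a median of 0.47 beside 0.086 over all miRNAs. In the Pkd2 line 6 of 10 were above 0, with a median of 0.048 beside -0.012. Members are correlated within libraries, so these are not 10 separate observations.

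The KO effect at P7 was also compared between lines in a fit of all 36 libraries, where 0.387% of all miRNAs and 0 of 10 members were called. miR-18a-5p differed by 1.00 on the log2 scale (SE 0.43, 95% interval 0.15 to 1.85, unadjusted p = 0.029, edgeR adjusted p = 0.39), with the larger KO effect in the Pkd1 line. miR-17-5p differed by 0.53 (SE 0.24, unadjusted p = 0.034, edgeR adjusted p = 0.39) in the same direction. The other 8 members had unadjusted p above 0.05.

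The second question was how the cluster moved over the first postnatal week without the deletion. From P1 to P7 in WT kidneys, 4 members fell in both lines: miR-17-5p, miR-18a-5p, miR-92a-3p and miR-92a-1-5p. These are 4 of 10 members in each model, beside 11.2% of all miRNAs called lower in the Pkd1 line and 16.9% in the Pkd2 line (21.5% and 28.3% in either direction). No member was called higher. Over the same interval the sum of the 6 kidney epithelial markers was higher at P7 in WT without overlap, at 15140 to 23980 against 6505 to 8868 CPM for Pkd1 and 24040 to 36550 against 11920 to 14480 CPM for Pkd2. The 4 leukocyte miRNAs were higher at P7 in the Pkd1 line (246 to 368 against 109 to 155 CPM) and overlapped in the Pkd2 line. The 2 miR-122 arms were lower at P7 in the Pkd2 line (1.22 to 3.64 against 11.9 to 360.0 CPM). The part of these shifts in the members' fall was not tested.

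The levels are those given above for the WT libraries. miR-92a-3p went from 5204 ± 348 to 3149 ± 374 CPM in the Pkd1 line and from 8605 ± 1157 to 4906 ± 753 CPM in the Pkd2 line (SD, n = 3). This was a log2 change of -0.72 (SE 0.16, edgeR adjusted p = 0.0070) and of -0.81 (SE 0.18, edgeR adjusted p = 0.0034). All P7 libraries lay below all P1 libraries in both lines.

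miR-17-5p fell by 0.69 (SE 0.16, edgeR adjusted p = 0.0092) and by 0.60 (SE 0.18, edgeR adjusted p = 0.018) on the log2 scale in the Pkd1 and Pkd2 models. miR-18a-5p, from 303 ± 55.4 to 131 ± 8.04 CPM and from 374 ± 30.8 to 174 ± 44.4 CPM, fell by 1.21 (SE 0.30, edgeR adjusted p = 0.014) and 1.11 (SE 0.27, edgeR adjusted p = 0.0061). miR-92a-1-5p, from 116 ± 28.1 to 43.4 ± 11.9 CPM and from 159 ± 13.1 to 77.1 ± 18.4 CPM, fell by 1.41 (SE 0.25, edgeR adjusted p = 0.0017) and 1.05 (SE 0.28, edgeR adjusted p = 0.0095). For all 3 the libraries of the ages did not overlap in either line.

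The other members did not pass the test, though some did under other choices. With the compared libraries alone fitted, miR-20a-5p (edgeR adjusted p = 0.020) and miR-18a-3p (adjusted p = 0.036) were called lower in the Pkd2 line. Of all miRNAs, 135 of 673 were called lower in that fit. With library totals alone, miR-17-3p (edgeR adjusted p = 0.031) and miR-20a-5p (adjusted p = 0.020) were called lower in the Pkd1 line, and both of these with miR-18a-3p and miR-20a-3p in the Pkd2 line (edgeR adjusted p 0.00065 to 0.0035). Beside them, 132 of 706 miRNAs were called lower in the Pkd1 line and 216 of 746 in the Pkd2 line. In the TMM fits of all 18 libraries of a line, miR-20a-5p had log2 changes of -0.53 (SE 0.23, edgeR adjusted p = 0.11) and -0.69 (SE 0.27, adjusted p = 0.073), again with all P7 libraries below all P1 libraries. miR-17-3p had -0.40 (SE 0.23, edgeR adjusted p = 0.21) and -0.46 (SE 0.25, adjusted p = 0.18), and miR-18a-3p had -0.33 (SE 0.26, adjusted p = 0.38) and -0.70 (SE 0.32, adjusted p = 0.12). miR-20a-3p had -0.04 (SE 0.36, edgeR adjusted p = 0.96) and -0.46 (SE 0.44, adjusted p = 0.49).

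The miR-19 members were again uncertain. miR-19a-3p had log2 changes of 0.76 (SE 1.26, edgeR adjusted p = 0.70) and 0.24 (SE 0.99, adjusted p = 0.89), and miR-19b-3p had 1.05 (SE 1.23, adjusted p = 0.58) and 0.55 (SE 1.00, adjusted p = 0.74). Over the 10 members the median log2 change came to -0.46 for Pkd1 and -0.64 for Pkd2, beside -0.03 and -0.06 over all miRNAs. In the Pkd1 line 6 members and in the Pkd2 line 8 were lower at P7 in every library, beside 16.4% and 27.7% of all miRNAs.

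The 4 members were lower under each scaling tried, and with library totals alone, which put the median log2 change of all miRNAs at -0.68 and -0.78, the medians of the members were -1.21 and -1.40. Some of these calls rested on single choices. In the Pkd1 line miR-17-5p missed the threshold when only the compared libraries were fitted (edgeR adjusted p = 0.063), and miR-18a-5p without P7 WT library 3 (adjusted p = 0.055). With 1 of Pkd2 WT libraries 2 and 3 at P7 left out, miR-17-5p (adjusted p = 0.084 and 0.10 by edgeR) and miR-92a-1-5p (adjusted p = 0.050 and 0.054) lost the call and 2 members were called. Of all miRNAs, 89 and 100 of 744 were then called lower. Counted from its lower precursor row, miR-92a-3p had log2 changes of -0.61 (edgeR adjusted p = 0.15) and -0.30 (adjusted p = 0.43).

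**Figure D4:**
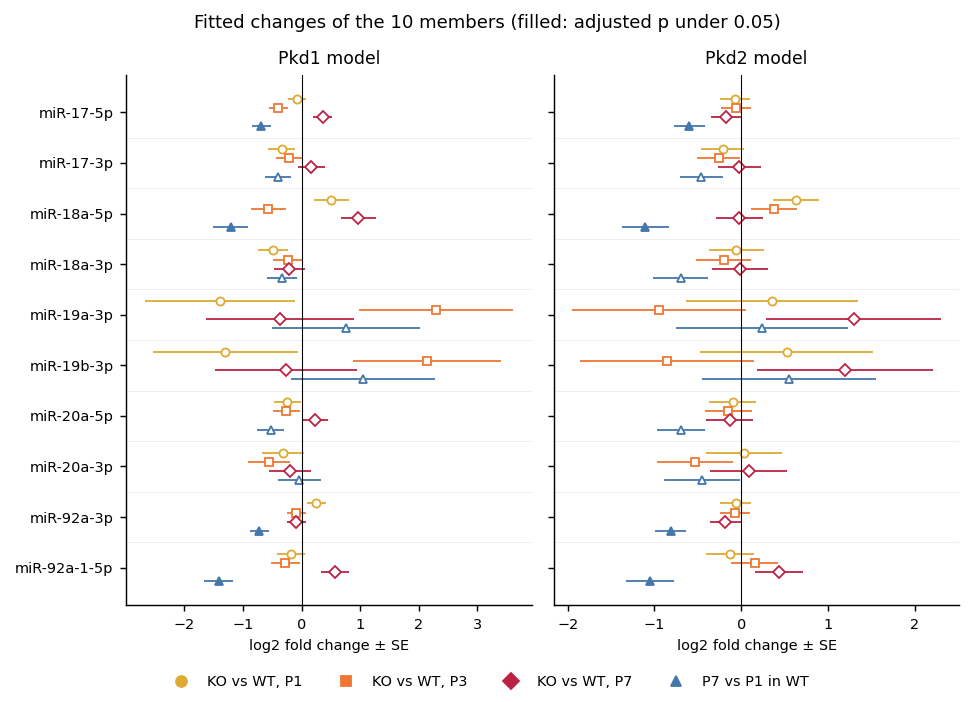
Fitted log2 change of each member with its standard error, for KO against WT at P1, P3 and P7 and for P7 against P1 in WT, in each model; filled symbols have an adjusted p under 0.05 (edgeR, over all miRNAs tested). Filled symbols appear for the change with age alone, at miR-17-5p, miR-18a-5p, miR-92a-3p and miR-92a-1-5p in both panels, and the bars of the miR-19 members are several times longer than the others.

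Because scaling cannot alter a ratio of 2 counts from 1 library, the balance within the cluster was compared through 9 such ratios. For KO against WT, with genotype labels permuted within each age, 0 of 18 tests passed adjustment. The 2 with an unadjusted p under 0.05 both involved miR-18a. The ratio of miR-18a-3p to miR-18a-5p was lower in Pkd1 KO by a mean log2 difference of -0.62 over the ages (exact permutation p = 0.032, adjusted p = 0.29). By age it was -0.98, 0.30 and -1.17 from P1 to P7. The ratio of miR-18a-5p to miR-17-5p was higher in Pkd2 KO by 0.40 (exact permutation p = 0.019, adjusted p = 0.29), and by 0.61, 0.42 and 0.18 at the 3 ages.

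With age in WT kidneys, 4 of the 9 ratios differed between P7 and P1 by the exact permutation test over both lines. miR-18a-5p lost ground against miR-17-5p, with a mean log2 difference of -0.51 (p = 0.015 by exact permutation, adjusted p = 0.034). The opposite arms gained on their guide strands: by 0.21 for miR-17-3p to miR-17-5p (exact permutation p = 0.010, adjusted p = 0.034), by 0.65 for miR-18a-3p to miR-18a-5p (exact permutation p = 0.015, adjusted p = 0.034), and by 0.34 for miR-20a-3p to miR-20a-5p (exact permutation p = 0.0050, the smallest the design allows, adjusted p = 0.034). Each of these 4 differences had the same sign in the 2 lines.

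The P3 means show that these differences between the end points were not all steady courses. The mean log2 ratio of miR-17-3p to miR-17-5p was highest at P3, at -4.11, -3.70 and -3.83 from P1 to P7 for Pkd1 and -3.98, -3.75 and -3.84 for Pkd2. That of miR-18a-5p to miR-17-5p was lowest at P3 for Pkd1 (-0.82, -2.01 and -1.32) and lower at each later age for Pkd2 (-1.36, -1.71 and -1.90). The ratio of miR-18a-3p to miR-18a-5p was highest at P3 for Pkd1 (-4.79, -3.77 and -3.92) and at P7 for Pkd2 (-4.55, -4.15 and -4.12), and that of miR-20a-3p to miR-20a-5p was highest at P7 for Pkd1 (-5.65, -5.27 and -5.20) and at P3 for Pkd2 (-5.55, -5.28 and -5.33).

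The remaining ratios did not pass. miR-92a-1-5p to miR-92a-3p went the other way from the 3 arm ratios above, with -0.48 (exact permutation p = 0.040, adjusted p = 0.072). Those of miR-92a-3p and miR-20a-5p to miR-17-5p had mean log2 differences of -0.12 and 0.02 (exact permutation, adjusted p = 0.40 and 0.76).

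The ratio calls were fragile in so small a design. They numbered 0 without Pkd1 P1 WT library 1 or 3 or Pkd2 P1 WT library 2, 1 without Pkd1 P1 WT library 2, Pkd2 P1 WT library 3 or Pkd2 P7 WT library 3, and 2 without Pkd1 P7 WT library 1 or 2. The sign of the 4 differences was the same in each of these. The miR-10 share was 57.9% to 81.0% in Pkd1 WT at P7 and 62.9% to 75.1% at P1, and 42.8% to 66.4% in Pkd2 WT at P7 and 44.3% to 49.7% at P1. Within groups, the ratio of miR-20a-3p to miR-20a-5p rose with this share in the Pkd1 line (Pearson's r = 0.63, permutation p = 0.0024, adjusted 0.0040). It did not pass in the Pkd2 line (adjusted 0.096). That of miR-17-3p to miR-17-5p rose in the Pkd2 line (r = 0.69, permutation p = 0.026, adjusted 0.038) and did not pass in the Pkd1 line (adjusted 0.096). The part of the share in the differences with age was not tested.

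**Figure D5:**
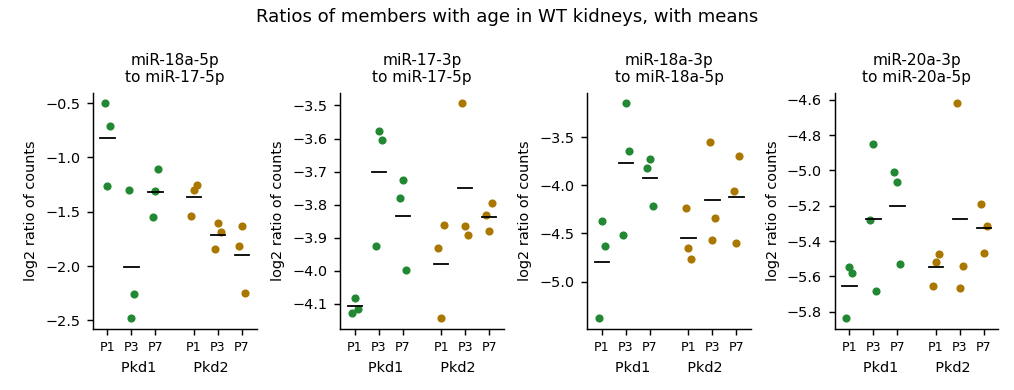
log2 ratio of counts in each WT library at P1, P3 and P7 for the 4 ratios that passed the exact permutation test between P7 and P1, with Pkd1 in green, Pkd2 in brown and bars for means of 3. miR-18a-5p to miR-17-5p lay lower at P7 than at P1 on average (mean log2 difference -0.51) and the 3 ratios of opposite arm to guide strand lay higher (0.21, 0.65 and 0.34).

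Among miRNAs with the same seed, the members were not always the main source of reads. Seeds were read for the 1623 of 1915 mature names that were matched in RefSeq, and the other names were not searched. The miR-17 seed was carried by 7 listed miRNAs, and miR-17-5p (20.4%) and miR-20a-5p (15.7%) together supplied 36.1% of its 2900880 reads. miR-93-5p alone supplied 54.1% and miR-106b-5p 8.80%, both from the miR-106b/25 cluster on chromosome 5, while miR-106a-5p and miR-20b-5p from chromosome X supplied 0.44% and 0.57%. Of the reads with the miR-92 seed, miR-92a-3p supplied 65.2% and miR-25-3p 32.6%. The miR-18 seed was nearly all miR-18a-5p (97.8%). Among the matched names, the miR-19 seed was carried by miR-19a-3p (11.7%) and miR-19b-3p (88.3%) alone.

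The paralogous clusters were set beside the members. Of the miR-106b/25 cluster, 6 of 6 listed miRNAs were tested and 0 were called for KO against WT at any age in either line. Of the miR-106a cluster on chromosome X, 7 of 10 were tested, and 4 were called lower in Pkd2 KO at P7, with 0 called in the other 5 comparisons. Of all miRNAs, 3.62% (27 of 746) were called lower there. These were miR-106a-5p (12.7 ± 4.14 CPM in KO, 20.1 ± 0.85 in WT), miR-20b-5p (17.6 ± 4.21 and 28.5 ± 3.95), miR-18b-5p (4.20 ± 1.25 and 7.02 ± 1.23) and miR-363-3p (17.4 ± 2.65 and 31.1 ± 0.28), each as SD with n = 3. Their log2 changes were -0.67 to -0.84 and their edgeR adjusted p 0.012 to 0.035. The count of 4 rested on single libraries, in a check chosen after seeing the data: it was 1 without any 1 of the 3 WT libraries, 2, 4 and 0 without KO library 1, 2 or 3, 0 with library totals alone, 1 with the compared libraries alone, and 1 of 10 tested with no filter. Without KO library 2 the 4 included miR-18b-3p and not miR-18b-5p.

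The member closest to miR-106a-5p in sequence, miR-17-5p, had -0.17 in that comparison, and the difference between the 2 clusters was not tested. With age in WT, miR-25-5p of the miR-106b/25 cluster was called lower in both lines, by 1.48 and 1.02 on the log2 scale with edgeR adjusted p of 0.0016 and 0.0048. Of the other arms of the miR-17/92 hairpins, miR-19a-5p and miR-19b-1-5p, 0 of 2 were called in any comparison.

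After centring on group means, members did not rise and fall as 1 unit over the 36 libraries. In these centred values miR-17-5p and miR-20a-5p had Spearman's rho of 0.96, and miR-19a-3p and miR-19b-3p 0.99. In contrast, miR-17-5p and miR-92a-3p had -0.21, and miR-19b-3p and miR-92a-3p -0.42. Centring takes out the changes with age, line and genotype. Without it, these pairs had rho of 0.89, 0.99, 0.61 and -0.35 in that order. Other centred pairs across seeds were high, such as miR-19b-3p with miR-17-5p (0.69) and with miR-20a-5p (0.81). Centred values of miR-92a-3p were below 0 with every other member (-0.43 to -0.017). Those of miR-18a-5p ran from -0.25 to 0.39. These are descriptions, since all values of a library share its scaling.

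The miRNAs outside the cluster with the most similar pattern over the 36 libraries (Spearman's rho of log2 CPM) differed by member. For miR-17-5p they were miR-335-3p (0.83), miR-466c-5p (0.79), miR-669a-5p and miR-669p-5p (0.78 each) and miR-301b-5p (0.75). For miR-92a-3p they were miR-6539 (0.88), miR-335-3p (0.86), miR-483-5p and miR-483-3p (0.85 each) and miR-675-3p (0.85). For miR-19b-3p they were miR-500-5p (0.90), miR-505-3p (0.89), miR-196b-5p (0.88), let-7a-1-3p and let-7c-2-3p (0.88 each). After centring on group means the values for miR-17-5p ran from 0.034 to 0.70, those for miR-92a-3p fell to between -0.14 and 0.46, and those for miR-19b-3p stayed between 0.84 and 0.93. Equal values before and after centring were held by let-7a-1-3p and let-7c-2-3p, and by miR-669a-5p and miR-669p-5p. Each of these pairs therefore shows 1 pattern listed under 2 names.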

How the data were processed

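Reads were trimmed of their adaptor and aligned by the authors with miRDeep2 (version not given in the sources used here) to the mouse genome or to miRBase release 21 miRNAs, and the submitters' processing notes name build mm10 and CASAVA 1.8.2. The authors deposited raw read counts, whole numbers without filter or normalization, with 1 row for each pair of mature miRNA and precursor (2061 rows, 1915 mature miRNAs). The row with the highest total was kept for the 83 miRNAs listed under several precursors, 2 of which are members. Columns of no known sample numbered 0.

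The members, lists and comparisons were chosen with earlier results of these data known. The filter kept miRNAs reaching 10 counts in 3 or more libraries, which were tested with edgeR 4.0.16 (quasi-likelihood, TMM, R 4.3.3) in a fit of the 18 libraries of a line (706 miRNAs for Pkd1, 746 for Pkd2) or of all 36 (775), with 1 term per group and Benjamini-Hochberg adjustment at 0.05. Intervals of 95% come from the standard errors on a normal scale. Alternatives were DESeq2 1.42.0 (its size factors, and its test), library totals alone, no filter, the compared libraries only, a replicate block, the sum or the lowest of the precursor rows, and each library left out. Ratios used counts plus 1 (alternative 5) and two-sided exact permutation tests in Python.

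Same-numbered KO and WT libraries deviated together (correlation over 0.1) in 7 of 18 pairs, so the numbers were not taken as pairs. Log2 fold change, SE and adjusted p are given for all members at P7 and with age, elsewhere for members with unadjusted p under 0.05. Likeness was taken as the 5 highest Spearman correlations of log2 CPM (prior count 2) for 3 members. The kidney epithelial list was miR-192-5p, miR-194-5p, miR-204-5p, miR-200a-3p, miR-200b-3p and miR-200c-3p, and the erythroid list miR-451a, miR-144-3p, miR-144-5p and miR-486a-5p. The leukocyte list was miR-142a-3p, miR-142a-5p, miR-223-3p and miR-150-5p, and the neural list miR-9-5p, miR-124-3p and miR-128-3p. The muscle list was miR-1a-3p, miR-133a-3p, miR-206-3p, miR-208a-3p, miR-208b-3p and miR-499-5p.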

Additional observations from a re-analysis of the deposited data

Results flagged for a closer look

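miR-17-5p separated KO from WT in opposite directions at 2 ages of the Pkd1 model. All 3 KO libraries lay below all 3 WT libraries at P3 (log2 fold change -0.40) and above them at P7 (0.36), so that the P3 change minus the P7 change was -0.757 on the log2 scale. Neither change passed adjustment (edgeR adjusted p = 0.49 at P3 and 0.45 at P7). Of all miRNAs in the Pkd1 line, 11.9% separated the genotypes in either direction at P3 and 16.3% at P7. The difference between the 2 ages was not tested, and it was picked out by a search over all members and comparisons.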

How the results depend on the processing

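Every library had at least 46 reads of each member, and no setting varied the depth. In 144 refits of the KO comparisons and of the differences between KO effects, 0 gave a called member. Most refits at P1 and P3 called 0 of all miRNAs as well. The most called in any was 157 of 746, by the DESeq2 test for Pkd2 at P7. Of the refitted log2 fold changes of members, 592 had the same direction and side of the threshold, 8 lost a call, 8 gained one and 40 changed sign. The called age changes were lost or gained as stated above, and the cause was not tested.

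With library totals alone, the Pkd2 age comparison called 8 members, all lower, beside 216 of 746 miRNAs called lower and 6 called higher. Signs turned there for miR-19a-3p with age (-0.21 in Pkd1, -0.72 in Pkd2) and miR-19b-3p with age in Pkd2 (-0.41), and for Pkd2 KO at P7 in miR-18a-5p (0.066) and miR-20a-3p (-0.10). With the compared libraries only, Pkd2 KO at P7 turned for miR-17-3p (0.0050), miR-18a-5p (0.028) and miR-18a-3p (0.012). From the lowest precursor row, miR-92a-3p turned for Pkd1 KO at P7 (0.091), and its ratio to miR-17-5p for Pkd2 KO (-0.18, and -0.012 from the sum of rows) and with age (0.20).

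Whether the replicate numbers pair the libraries was not settled. Of the WT libraries, 5 of 18 correlated best with the KO library of their own number. With 3 libraries per group this check cannot exclude pairing, and it does not cover pairs across ages. The replicate block left the counts of called members at 0 for KO and 4 and 4 with age, and gave 0 ratios with age. Beside the age counts, 41 of 706 miRNAs for Pkd1 and 120 of 746 for Pkd2 were called lower. Swapping labels within the 6 numbered pairs leaves the 4 ratio differences as they were, and each reached the smallest p it allows by exact permutation, 0.031, with an adjusted p of 0.070. In the fits with the replicate block, signs turned for miR-19a-3p (0.037) and miR-19b-3p (0.068) in Pkd1 KO at P7. They also turned for miR-20a-3p (-0.022) in Pkd2 KO at P7 and miR-19a-3p (-0.20) with age in Pkd2.

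With 1 library left out, the Pkd2 age comparison called 2 to 4 members, where 80 to 118 of all miRNAs were called lower. The age comparison of ratios called 0 to 4. Age changes ran from -0.27 to 0.24 for miR-20a-3p in Pkd1, and in Pkd2 from -1.12 to 0.69 for miR-19a-3p and -0.79 to 1.00 for miR-19b-3p. For Pkd1 KO at P7 the ranges were -0.087 to 0.29 (miR-17-3p), -0.95 to 0.094 (miR-19a-3p), -0.83 to 0.14 (miR-19b-3p), -0.023 to 0.37 (miR-20a-5p), -0.56 to 0.035 (miR-20a-3p) and -0.23 to 0.0039 (miR-92a-3p). For Pkd2 KO at P7 they were -0.33 to 0.17 (miR-17-3p), -0.27 to 0.086 (miR-18a-5p), -0.44 to 0.17 (miR-18a-3p), -0.14 to 2.53 (miR-19b-3p), -0.55 to 0.086 (miR-20a-5p) and -0.52 to 0.38 (miR-20a-3p). Ratio differences ran for Pkd1 KO from -0.018 to 0.095 (miR-92a-1-5p to miR-92a-3p) and -0.0096 to 0.12 (miR-92a-3p to miR-17-5p), for Pkd2 KO from -0.11 to 0.081 (miR-92a-3p to miR-17-5p), -0.083 to 0.0066 (miR-20a-5p to miR-17-5p) and -0.020 to 0.15 (miR-20a-3p to miR-20a-5p), and with age from -0.0086 to 0.066 (miR-20a-5p to miR-17-5p).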
